A study of Homo sapiens with 8 samples.

Results

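The genes described here are those of the MHC class I antigen presentation pathway in LX-2 cells. The members were 9 genes fixed by name: the class I heavy chains HLA-B, HLA-C, HLA-E and HLA-F, the light chain B2M, the peptide transporter subunits TAP1 and TAP2, and the immunoproteasome subunits PSMB8 and PSMB9. All 9 had a row among the 25369 genes of the count table, and all 9 were among the 14570 genes with enough counts to be tested. The members were chosen by role and not by a cutoff on a measured value, though earlier results of these data were known.

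LX-2 is an immortalized line of human hepatic stellate cells (HSCs), the liver cells that turn into matrix-producing myofibroblasts in fibrosis. Wild-type LX-2 cells were grown on fibronectin-coated polyacrylamide hydrogels with a stiffness of 2 kPa (soft matrix) or 40 kPa (stiff matrix). RNA was sequenced after 2 or 4 days, with 2 libraries for each of the 4 conditions and 8 libraries in all. The study compared the matrices at each day to learn how stiffness changes the transcriptome of these cells, and the days on each matrix show the change over time in culture. All conditions shared the line, its genotype and the fibronectin coat, so that an immortalized line grown without other liver cells limits them as a model of the liver.

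Almost all nucleated cells display peptides from their own proteins on MHC class I molecules, where CD8 T cells and natural killer cells inspect them. The proteasome cuts proteins into peptides, the TAP transporter moves these into the endoplasmic reticulum, and a loading complex fits them into a groove formed by a heavy chain held by beta-2-microglobulin. Interferons raise most of these genes, and exchange the catalytic subunits of the proteasome for those of the immunoproteasome.

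Library totals lay between 19955975 and 27263935 counts. Levels are given as CPM, the counts of a gene scaled to the size of its library. The 14 stellate cell or myofibroblast markers summed to between 3437 and 4332 CPM at day 2 and between 5447 and 8168 CPM at day 4, although DES and LRAT had at most 2 counts in any library. The libraries of the stiff matrix at day 4 stood apart from each other. Their median absolute log2 difference over the genes tested was 0.467, against 0.0942 to 0.207 between the libraries of the other conditions, and 14.3% of genes differed at least 2-fold between them. The log2 fold changes that moved most are therefore also given without each library of that condition.

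B2M had the highest level of the members. CPM per kilobase of the canonical transcript averaged 881 over the 8 libraries for B2M, 379 for HLA-B, 215 for HLA-C and 78.0 for HLA-E, and this order held in each of the 8 libraries. PSMB8 followed with a mean of 33.6 and PSMB9 with 22.2 CPM per kilobase. TAP2 averaged 12.4, TAP1 12.1 and HLA-F 10.5 CPM per kilobase. The ranges of the last 3 genes over the libraries overlapped, at 8.22 to 15.8 for TAP2, 7.55 to 15.04 for TAP1 and 5.31 to 14.1 for HLA-F, and those of PSMB8 and PSMB9 overlapped as well. By mean CPM, which is not scaled by length, B2M ranked 112 and HLA-B 205 among the 14570 genes tested.

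The deposited FPKM gave a different picture of these levels. The mean FPKM was 835 for B2M but 61.3 for HLA-B, 29.8 for HLA-C, 10.6 for HLA-E and 1.28 to 2.68 for the other 5 members. The gene length used for each FPKM can be read from the count and the FPKM, and it was a whole number of bases, within 0.01 base, for all 20029 genes for which it could be computed. For HLA-B this length was 9432 bases, although the canonical transcript has 1536 bases, and for PSMB8 it was 14174 against 1124 bases. For B2M, which lies on chromosome 15 outside the MHC, the lengths were 987 and 943 bases. The 8 members on chromosome 6 had ratios of FPKM length to transcript length between 6.14 and 12.6. Of 103 protein-coding genes in the GRCh37 interval chr6:29690552-32827628, which spans these members, 90.3% had a ratio of at least 5, with a median of 7.43. Among 15264 protein-coding genes elsewhere the median ratio was 1.01 and 0.210% reached 5. The deposited FPKM thus understate the chromosome 6 members relative to B2M by about these ratios, while comparisons of conditions within a gene do not depend on the length. The cause of the long lengths was not tested.

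**Figure D1:**
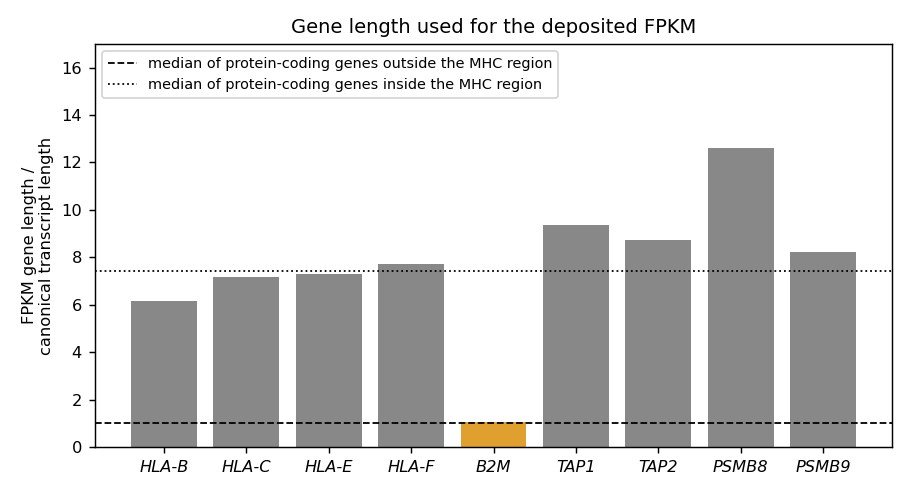
Gene length used for the deposited FPKM divided by the length of the canonical transcript (vertical axis, ratio) for the 9 members (horizontal axis), with the medians of protein-coding genes inside and outside the MHC interval as dotted and dashed lines. The bar of B2M is at 1.05, and the bars of the other 8 genes lie between 6.14 and 12.6.

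The promoter windows of 5 members are printed because the stiff libraries of HLA-F, B2M, TAP1 and PSMB9 lay below the soft ones at both days, as described further on, while those of HLA-B did so only at day 2. Each window runs from 250 bases before to 50 bases after a start site, 5′ to 3′ on the gene's strand, from RefSeq on GRCh38.p14. The windows are B2M at chr15:44711267-44711566 (forward strand), HLA-B at chr6:31357130-31357429 (reverse), HLA-F at chr6:29723184-29723483 (forward), the upstream window of TAP1 at chr6:32853655-32853954 (reverse) and PSMB9 at chr6:32853942-32854241 (forward). Capitals mark matches on either strand to the interferon-stimulated response element (ISRE, spelled GAAANN and then GAAA), the gamma-interferon-activated site (GAS, TTCNNNGAA), the kappaB consensus or the AP-1 site (TGANTCA). Overlapping matches run together.
B2M: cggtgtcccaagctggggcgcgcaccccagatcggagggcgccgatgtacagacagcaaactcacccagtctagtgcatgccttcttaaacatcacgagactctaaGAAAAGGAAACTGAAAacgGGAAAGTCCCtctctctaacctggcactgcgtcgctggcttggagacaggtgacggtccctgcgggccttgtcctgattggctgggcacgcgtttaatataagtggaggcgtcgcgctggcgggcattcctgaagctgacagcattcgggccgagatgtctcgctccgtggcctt
HLA-B: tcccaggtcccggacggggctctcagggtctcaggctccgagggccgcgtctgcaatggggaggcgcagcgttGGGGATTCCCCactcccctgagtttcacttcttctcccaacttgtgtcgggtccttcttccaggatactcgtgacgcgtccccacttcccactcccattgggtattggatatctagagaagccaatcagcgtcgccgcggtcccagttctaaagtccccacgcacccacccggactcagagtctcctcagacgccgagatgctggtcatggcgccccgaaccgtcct
HLA-F: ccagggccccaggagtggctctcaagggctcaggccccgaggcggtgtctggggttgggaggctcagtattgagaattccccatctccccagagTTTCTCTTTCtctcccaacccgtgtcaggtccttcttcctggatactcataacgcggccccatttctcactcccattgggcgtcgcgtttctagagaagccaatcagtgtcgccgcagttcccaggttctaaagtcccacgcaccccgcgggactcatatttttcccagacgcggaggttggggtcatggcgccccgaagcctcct
TAP1: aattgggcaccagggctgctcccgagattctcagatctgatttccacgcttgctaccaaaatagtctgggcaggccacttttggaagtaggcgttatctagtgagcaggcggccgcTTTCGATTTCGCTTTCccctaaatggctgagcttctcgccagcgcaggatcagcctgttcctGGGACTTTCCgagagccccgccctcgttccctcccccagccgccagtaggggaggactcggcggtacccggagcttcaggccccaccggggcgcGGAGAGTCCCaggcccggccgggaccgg
PSMB9: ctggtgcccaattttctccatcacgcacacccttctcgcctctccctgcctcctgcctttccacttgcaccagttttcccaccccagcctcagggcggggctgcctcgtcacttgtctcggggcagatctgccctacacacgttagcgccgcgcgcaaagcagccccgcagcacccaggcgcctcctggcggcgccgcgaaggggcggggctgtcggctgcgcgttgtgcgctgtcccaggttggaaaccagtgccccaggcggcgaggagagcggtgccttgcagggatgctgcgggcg

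In B2M the run of capitals holds 2 overlapping ISRE matches, 144 to 129 bases before the start site, followed by a kappaB match. TAP1 also held 2 overlapping ISRE matches, 134 to 119 bases before the start, and 2 kappaB matches. HLA-F held 1 ISRE match, HLA-B held overlapping kappaB matches, and the PSMB9 window held no match to these letters. The TAP1 and PSMB9 genes lie head to head, and their windows overlap. Windows were found for 8 of the 9 members, 10 windows in all, and 5 members had an ISRE match (HLA-F, B2M, TAP1, TAP2 and PSMB8). An ISRE match occurred in 3.57% of all 35116 windows. The kappaB consensus was found in windows of 4 members (HLA-B, HLA-C, TAP1 and B2M) and in 7.73% of all windows. GAS matches occurred in PSMB8 and TAP1 and in 7.66% of all windows, and AP-1 matches in 0 members and in 7.71% of all windows. CCAAT boxes, matched as CCAAT and not marked, occurred in windows of 6 members and in 34.6% of all windows. A match of letters is a description and not evidence of binding.

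Stiff and soft matrix were compared within each day to see whether stiffness changed these genes. All 9 members had a log2 fold change below 0 on the stiff matrix at day 2 and at day 4, but 0 of 9 passed an adjusted p-value of 0.05 at either day by edgeR's quasi-likelihood test. Of all genes tested, 48.3% had a value below 0 at day 2 and 46.6% at day 4, and 0% passed the adjusted cutoff at day 2 and 0.247% at day 4. The lowest values were those of PSMB9 at day 2, with a log2 fold change of -0.69, and of HLA-F at day 4, with -0.61. DESeq2 and limma also called 0 members at either day. The median of the 9 log2 fold changes was -0.32 at day 2 and -0.19 at day 4, beside medians over all genes of 0.0081 and 0.020. In bulk RNA, fewer cells that express a gene and less RNA per cell cannot be told apart.

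At day 2, both stiff libraries lay below both soft libraries in all 9 members. This held for 22.4% of all genes tested. At an unadjusted p-value under 0.05, B2M and PSMB9 were lower, 2 of 9 members against 1.78% of all genes. Fitted alone, the 4 libraries of day 2 gave 5 members called lower on the stiff matrix by edgeR, HLA-B, HLA-C, HLA-F, B2M and PSMB9. In that fit 4.67% of all genes were called, counted in either direction. At day 4, the stiff libraries lay below the soft ones in 4 of 9 members, HLA-F, B2M, TAP1 and PSMB9, and in 14% of all genes. At an unadjusted p-value under 0.05, 3 of 9 were lower at day 4, B2M, TAP1 and PSMB9, against 4.32% of all genes.

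**Figure D2:**
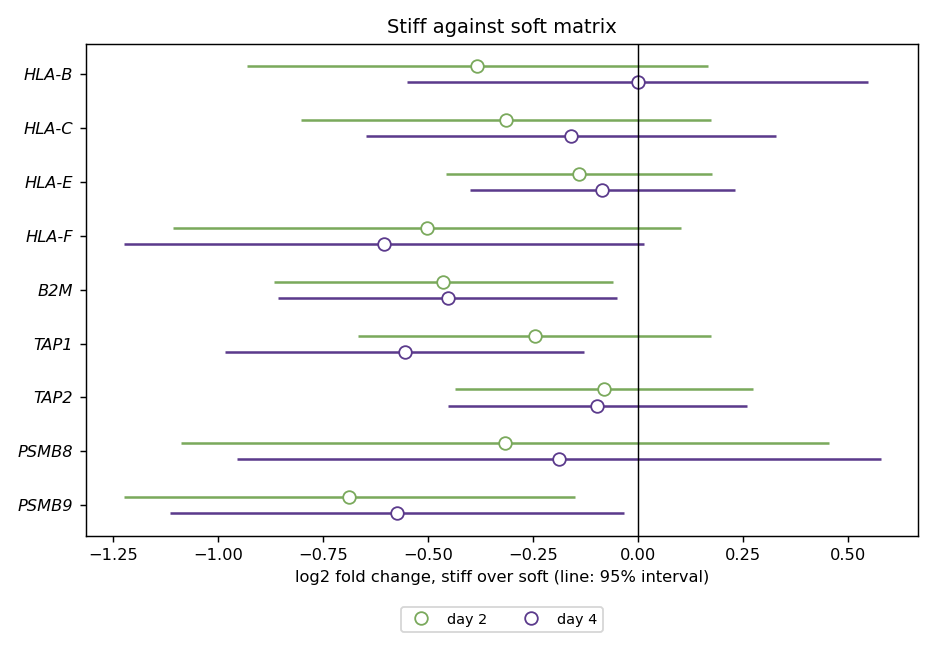
Log2 fold change of each member on the stiff over the soft matrix at day 2 (green) and day 4 (purple), with 95% intervals from edgeR's fit as lines and open circles for an adjusted p of 0.05 or more. All 18 circles are open and lie below 0, from -0.69 for PSMB9 at day 2 to -0.0021 for HLA-B at day 4.

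The mean of the effects of both days was tested in the same fit. Again 0 of 9 members passed the adjusted cutoff, against 0.426% of all genes, and the lowest adjusted p-values by edgeR's quasi-likelihood test were 0.267 for PSMB9 and 0.284 for B2M. At an unadjusted p-value under 0.05, 4 members were lower, HLA-F, B2M, TAP1 and PSMB9, against 4.75% of all genes. In the same 4 members, and in 6.14% of all genes, the stiff libraries lay below the soft ones at both days. DESeq2 called 2 members lower on this mean, B2M and PSMB9, with a lowest adjusted p of 0.0483. It called 1.62% of all genes, counted in either direction. The change of the stiffness effect from day 2 to day 4 was called in 0 of 9 members and in 0% of all genes, and 0 members and 1.95% of all genes had an unadjusted p-value under 0.05 for it.

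The libraries of the stiff matrix at day 4 decided much of the day-4 comparison. Without replicate 1 of this condition, the log2 fold changes of 4 members at day 4 turned above 0. They were 0.32 for HLA-B, 0.12 for HLA-C, 0.055 for HLA-E and 0.29 for PSMB8, while TAP1 had the lowest value, -0.75. Without replicate 2, the lowest values at day 4 were -1.07 for HLA-F, -0.96 for PSMB9, -0.89 for PSMB8 and -0.67 for B2M, and TAP2 turned to 0.090. The mean of both days is given without replicate 1 and then without replicate 2. It was -0.47 and -0.83 for PSMB9, -0.36 and -0.57 for B2M, -0.37 and -0.79 for HLA-F and -0.50 and -0.31 for TAP1. Between these libraries, 7 of the 9 members were higher in replicate 2, and the median absolute log2 difference of the members was 0.602. The values at day 2 came from libraries closer to each other, with members' medians of 0.0922 on the soft and 0.0851 on the stiff matrix. Their p-values used the spread shared by all conditions, so the absence of calls at day 2 also depended on the stiff libraries of day 4. Without replicate 1 and then without replicate 2 of these, the day-2 log2 fold change of PSMB9 was -0.69 and -0.70. It then passed the cutoff at day 2, as did more of all genes.

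**Figure D3:**
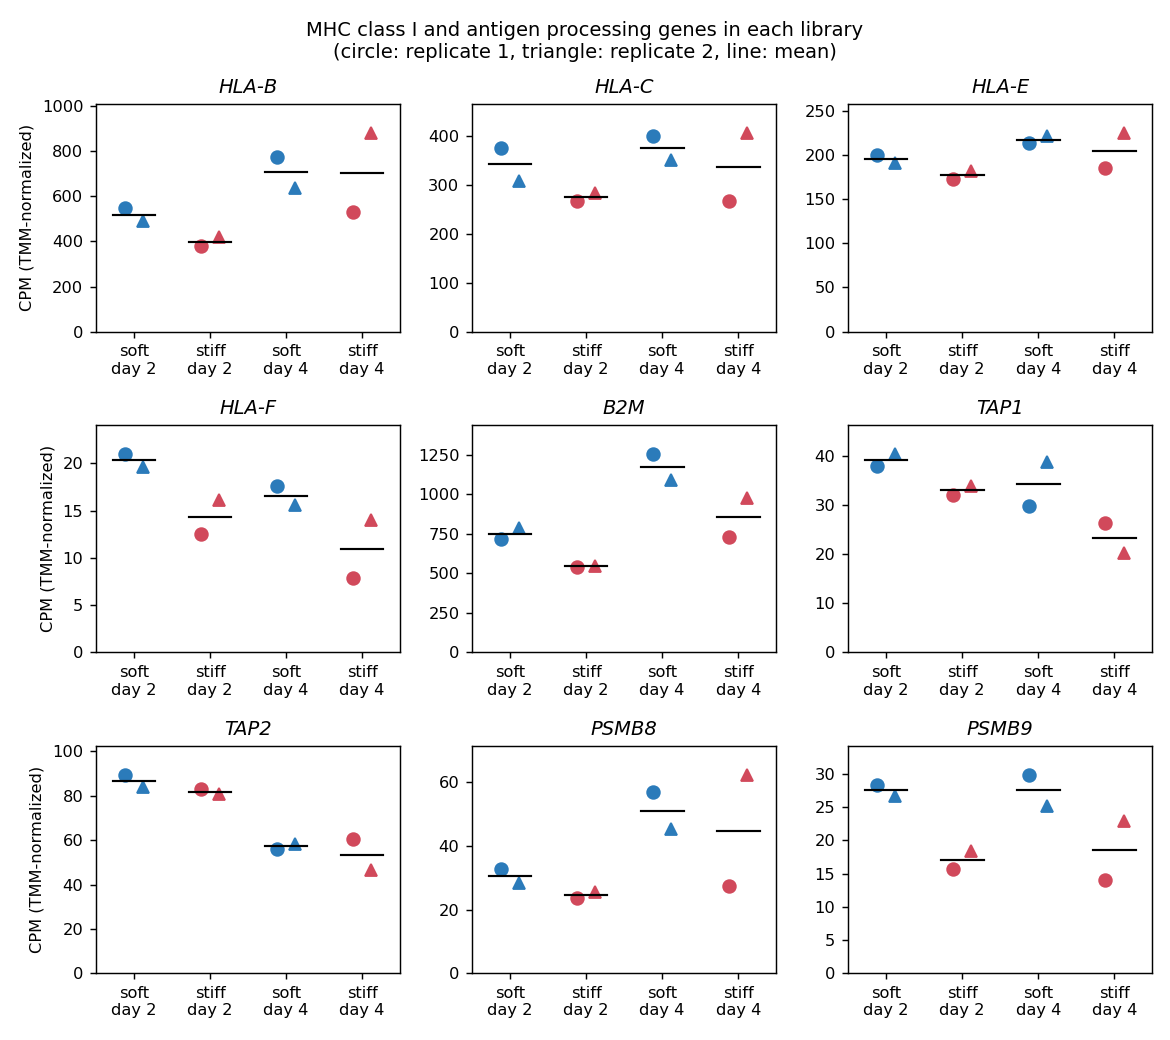
TMM-normalized CPM of each member (vertical axis from 0, own scale per gene) in the 8 libraries, grouped by matrix and day, with circles for replicate 1, triangles for replicate 2 and lines at the mean of 2 libraries. The libraries of the stiff matrix at day 4 are the farthest apart for most genes, as for PSMB8 with 27.4 and 62.1 CPM, and TAP2 is lower at day 4 than at day 2 on both matrices.

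Among the heavy chains, HLA-B and HLA-C encode classical molecules that present peptides to CD8 T cells. HLA-B, on chromosome 6 of GRCh37 from 31321649 to 31334844 (reverse strand), was at 549 and 489 CPM in the soft libraries of day 2 and at 378 and 418 CPM in the stiff ones. At day 4 it was at 775 and 638 CPM on the soft and at 532 and 880 CPM on the stiff matrix. The stiff libraries were thus the lower ones at day 2, whereas at day 4 they were the lowest and the highest of the 4. The log2 fold change was -0.38 (SE 0.237) at day 2 and -0.0021 (SE 0.237) at day 4, with a 95% interval at day 4 from -0.55 to 0.55. From day 2 to day 4 HLA-B rose on the stiff matrix with a log2 fold change of 0.83 (SE 0.239, adjusted p = 0.0374 in edgeR), and all day-4 libraries lay above those of day 2 on both matrices. Without replicate 1 of the stiff matrix at day 4 this value was 1.14, and without replicate 2 it was 0.41. On the soft matrix the difference between the days was 0.45 (adjusted p = 0.196 in edgeR).

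HLA-C, on chromosome 6 from 31236526 to 31239907 (reverse strand), was at 375 and 308 CPM on the soft and 266 and 283 CPM on the stiff matrix at day 2. At day 4 the soft libraries were at 400 and 351 CPM and the stiff ones at 267 and 405 CPM, so that they overlapped. Its log2 fold changes on the stiff matrix were -0.32 (SE 0.211) and -0.16 (SE 0.211), and those between the days were 0.14 on the soft and 0.29 on the stiff matrix. None of these passed the cutoff. The count of HLA-B over that of HLA-C lay between 1.42 and 1.59 in the 4 libraries of day 2 and between 1.82 and 2.17 in those of day 4, so that the ratio was higher in every day-4 library.

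HLA-E and HLA-F encode nonclassical heavy chains. HLA-E, which presents signal peptides of other class I chains to natural killer cell receptors, lies on chromosome 6 from 30457286 to 30461971 (forward strand). It varied least of the members, at 200 and 191 CPM on the soft and 173 and 181 CPM on the stiff matrix at day 2, and at 214 and 221 CPM on the soft and 185 and 225 CPM on the stiff matrix at day 4. The log2 fold change on the stiff matrix was -0.14 (95% interval -0.46 to 0.17) at day 2 and -0.086 (-0.40 to 0.23) at day 4. HLA-F, on chromosome 6 from 29690552 to 29706305 (forward strand), had the fewest counts of the members, 160 to 595 per library. It was at 20.9 and 19.6 CPM on the soft and 12.5 and 16.1 CPM on the stiff matrix at day 2, and at 17.6 and 15.5 against 7.85 and 14.0 CPM at day 4. All 4 stiff libraries lay below the soft libraries of the same day. The log2 fold changes were -0.50 (SE 0.261) and -0.61 (SE 0.268, adjusted p = 0.736 in edgeR), and between the days they were -0.29 on the soft and -0.39 on the stiff matrix, neither called.

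Class I heavy chain genes are close copies of each other, and reads that fit several of them could have been split or dropped in the counting, so that each of their values is uncertain. Exons of HLA-F share 535 bases with HLA-F-AS1 on the opposite strand, and the strand setting of the counting is not given in the sources used here. Among 5 other rows of class I heavy chain genes and pseudogenes, 0 were called between the matrices at either day. Between the days, 4 of the 5 were called lower on both matrices, beside 13.3% of all genes on the soft and 13.7% on the stiff matrix. The 4 are named here after their values were seen: HLA-G and the pseudogenes HLA-H, HLA-J and HLA-L. HLA-G, a nonclassical chain best known from the placenta, had 73 and 56 counts on the soft and 45 and 36 on the stiff matrix at day 2, and 2 and 3 on the soft and 0 and 1 on the stiff matrix at day 4 (adjusted p = 0.00220 soft and 0.00228 stiff in edgeR). HLA-H had log2 fold changes of -0.95 on the soft and -0.92 on the stiff matrix (adjusted p = 0.0202 and 0.0238 in edgeR), and its call was lost in 4 of 8 cases on the soft and 2 of 8 on the stiff matrix when 1 library was left out. That of HLA-J was lost in 5 of 8 cases on the soft and 2 of 8 on the stiff matrix. These rows and HLA-B thus moved in opposite directions on the stiff matrix, where HLA-B rose.

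B2M encodes beta-2-microglobulin, the light chain that class I heavy chains generally need to reach the cell surface. The gene lies on chromosome 15 of GRCh37 from 45003556 to 45011049 (forward strand). At day 2 it was at 718 and 785 CPM on the soft and at 541 and 548 CPM on the stiff matrix. At day 4 it was at 1252 and 1091 CPM on the soft and at 732 and 977 CPM on the stiff matrix. At each day both stiff libraries were the lower ones. The log2 fold changes on the stiff matrix were nearly equal, -0.46 (SE 0.174) at day 2 and -0.45 (SE 0.174, adjusted p = 0.636 in edgeR) at day 4. Their mean was -0.46 (95% interval -0.74 to -0.17, adjusted p = 0.284 in edgeR).

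B2M rose from day 2 to day 4 on both matrices, by 0.64 on the soft (SE 0.175, adjusted p = 0.0308 in edgeR) and by 0.65 on the stiff matrix (SE 0.175, adjusted p = 0.0294 in edgeR) on the log2 scale. No library of day 4 fell within the range of day 2 on the same matrix. Without replicate 1 of the stiff matrix at day 4 the rise on the stiff matrix was 0.84, and without replicate 2 it was 0.42. With a library of another condition left out, B2M no longer passed the cutoff on either matrix. Without either library of the stiff matrix at day 4 it still passed on both, as did a larger share of all genes.

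TAP1 and TAP2 encode the subunits of the transporter that carries peptides into the endoplasmic reticulum. Both had log2 fold changes below 0 from day 2 to day 4 on each matrix. Both were also lower in replicate 2 than in replicate 1 of the stiff matrix at day 4. TAP1, on chromosome 6 from 32812986 to 32821593 (reverse strand), was at 38.1 and 40.4 CPM on the soft and 32.1 and 34.0 CPM on the stiff matrix at day 2, and at 29.8 and 38.8 against 26.3 and 20.3 CPM at day 4. The stiff libraries were lower at both days. The log2 fold change was -0.25 (SE 0.182) at day 2 and -0.56 (SE 0.185, adjusted p = 0.493 in edgeR) at day 4, the lowest adjusted p-value of the members at that day. Between the days it was -0.19 on the soft and -0.50 on the stiff matrix (adjusted p = 0.454 and 0.0781 in edgeR).

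TAP2, on chromosome 6 from 32789610 to 32806516 (reverse strand), was at 89.2 and 83.8 CPM on the soft and 82.8 and 80.6 CPM on the stiff matrix at day 2. At day 4 it was at 56.2 and 58.3 CPM on the soft and 60.6 and 46.4 CPM on the stiff matrix. Between the matrices it differed least of the members on the mean of both days, with a log2 fold change of -0.090 (95% interval -0.34 to 0.16). TAP2 fell from day 2 to day 4, with log2 fold changes of -0.59 on the soft (SE 0.154, adjusted p = 0.0259 in edgeR) and -0.61 on the stiff matrix (SE 0.154, adjusted p = 0.0240 in edgeR), and every day-4 library lay below every day-2 library. The count of B2M over that of TAP2 went from 6.54 to 9.38 in the libraries of day 2 to 12.1 to 22.3 in those of day 4. Exons of TAP2 share 2023 bases with another gene model on the same strand, and those of TAP1 share 672 bases with PSMB8-AS1 on the opposite strand.

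PSMB8 and PSMB9 encode catalytic subunits of the immunoproteasome, which take the places of PSMB5 and PSMB6. PSMB8, on chromosome 6 from 32808494 to 32812456 (reverse strand), was at 32.8 and 28.4 CPM on the soft and 23.8 and 25.4 CPM on the stiff matrix at day 2. At day 4 the soft libraries were at 56.7 and 45.2 CPM and the stiff ones at 27.4 and 62.1 CPM. The stiff replicates of day 4 thus differed by 2.27-fold, the largest difference of any member, and lay on either side of the soft ones. The log2 fold change on the stiff matrix was -0.32 (SE 0.334) at day 2 and -0.19 (SE 0.331) at day 4. From day 2 to day 4 it was 0.73 on the soft and 0.86 on the stiff matrix, and although no libraries overlapped, neither passed the cutoff (adjusted p = 0.137 and 0.0925 in edgeR).

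PSMB9, on chromosome 6 from 32811913 to 32827628 (forward strand), was at 28.3 and 26.7 CPM on the soft and 15.7 and 18.4 CPM on the stiff matrix at day 2. At day 4 it was at 29.8 and 25.2 CPM on the soft and 14.0 and 22.9 CPM on the stiff matrix. Every stiff library lay below every soft library of either day. The log2 fold change was -0.69 (SE 0.232) at day 2 and -0.57 (SE 0.233, adjusted p = 0.682 in edgeR) at day 4, and the mean of both was -0.63 (95% interval -1.01 to -0.25, adjusted p = 0.267 in edgeR). Between the days the mean level on the soft matrix was 27.5 CPM at both, and the log2 fold change on the stiff matrix was 0.11. PSMB8 and PSMB9 lie on opposite strands and share 139 exon bases.

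The ratio of an immunoproteasome subunit to its constitutive counterpart within a library does not depend on scaling. PSMB8 counts were 0.237 and 0.237 of those of PSMB5 on the soft and 0.178 and 0.201 on the stiff matrix at day 2, and 0.350 and 0.312 against 0.185 and 0.270 at day 4. PSMB9 counts were 0.164 and 0.180 of those of PSMB6 on the soft and 0.101 and 0.120 on the stiff matrix at day 2, and 0.135 and 0.143 against 0.0880 and 0.0668 at day 4. Both ratios were lower in both stiff libraries at each day. For PSMB10, the remaining immunoproteasome subunit, the ratio to PSMB7 was 0.189 and 0.175 on the soft and 0.110 and 0.136 on the stiff matrix at day 2, and the libraries overlapped at day 4, at 0.208 and 0.170 against 0.0945 and 0.176. No test was run on these ratios, and a ratio shows an unequal change of the pair without saying which gene moved. PSMB5, PSMB6 and PSMB7 were called in 0 comparisons, with log2 fold changes on the stiff matrix of 0.30, 0.35 and 0.20 at day 4.

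**Figure D4:**
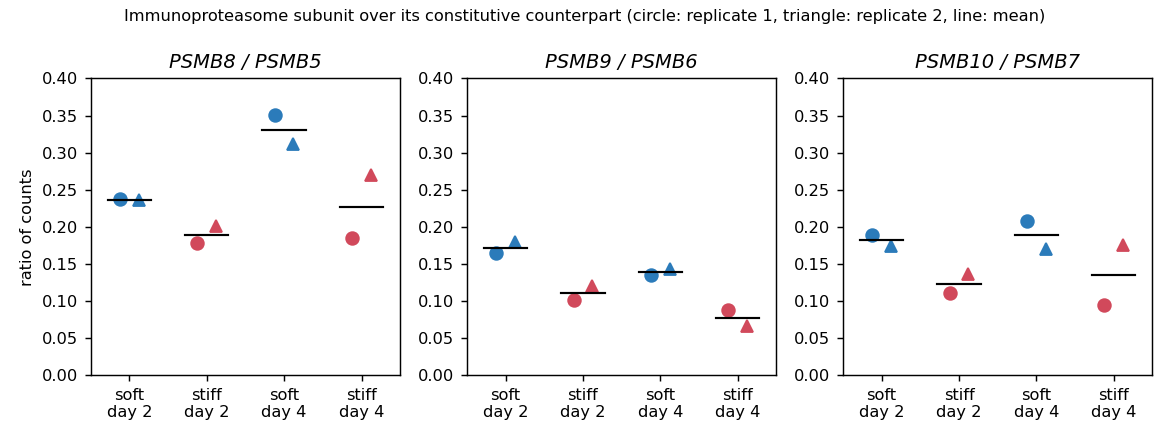
Ratio of counts of each immunoproteasome subunit to its constitutive counterpart (vertical axis from 0) in the 8 libraries, with circles for replicate 1, triangles for replicate 2, lines at the mean, soft matrix in blue and stiff matrix in red. The ratios of PSMB8 to PSMB5 and of PSMB9 to PSMB6 are lower in the stiff libraries at each day, and those of PSMB10 to PSMB7 overlap at day 4.

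The change from day 2 to day 4 split the members. On the soft matrix, 2 of 9 passed the adjusted cutoff, B2M upward and TAP2 downward, where 27.4% of all genes passed it (14.1% upward and 13.3% downward). On the stiff matrix 3 of 9 passed, HLA-B and B2M upward and TAP2 downward, beside 27.6% of all genes (14% upward and 13.7% downward), so that the members' share was near that of all genes on both. The day-4 libraries lay above those of day 2 in 4 members on each matrix, HLA-B, HLA-E, B2M and PSMB8, against 38.5% of all genes on the soft and 31.6% on the stiff matrix. They lay below in HLA-F and TAP2 on the soft matrix (36.7% of all genes) and in TAP1 and TAP2 on the stiff matrix (31.1%). The calls depended on which library was left out. Most were lost without a library of another condition than the stiff matrix at day 4. All were kept without either library of the stiff matrix at day 4, where a larger share of all genes passed as well. Each of these fits leaves 1 library in a condition, so their calls are not listed singly. The values on the stiff matrix without replicate 1 and without replicate 2 were -0.82 and -0.44 for TAP2, -0.71 and -0.34 for TAP1, 1.34 and 0.15 for PSMB8 and -0.035 and -0.87 for HLA-F.

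**Figure D5:**
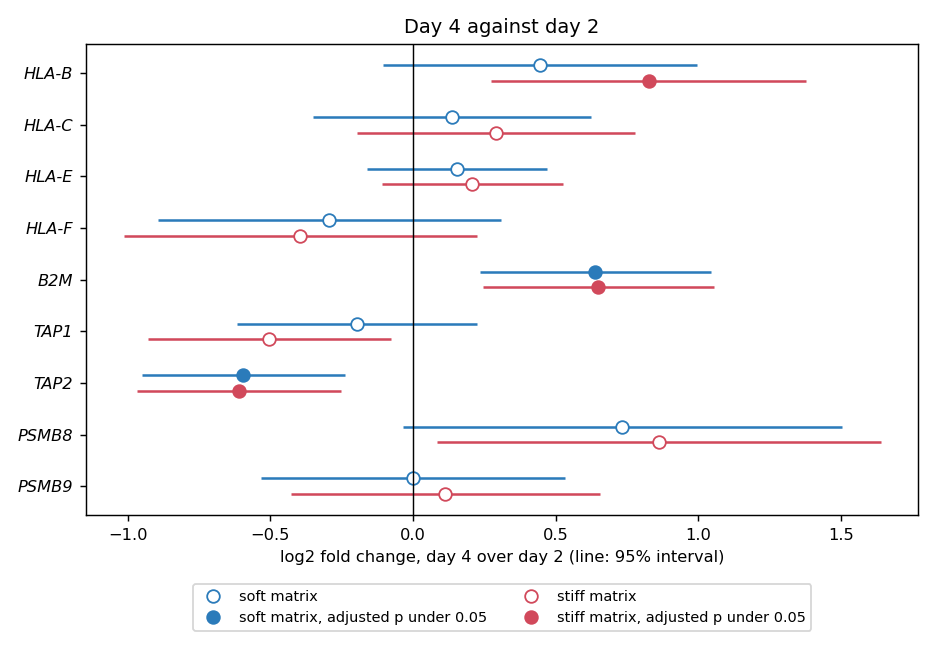
Log2 fold change of each member at day 4 over day 2 on the soft (blue) and stiff (red) matrix, with 95% intervals as lines and filled circles for an adjusted p under 0.05 by edgeR. B2M is filled above 0 and TAP2 below 0 on both matrices, and HLA-B is filled at 0.83 on the stiff matrix.

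Markers of other cell types also moved between the days. The 9 leukocyte markers summed to between 91.6 and 110 CPM at day 2 and between 107 and 127 CPM at day 4, most of it CD68, while CD163, CD3E and MS4A1 had 0 counts in every library. The sum was higher in the stiff than in the soft libraries of the same day, at 108 to 110 against 91.6 to 97.1 CPM at day 2 and 118 to 127 against 107 to 110 CPM at day 4. PTPRC, the common leukocyte antigen, had 12 to 27 counts per library at day 2 and 35 to 64 at day 4. CSF1R, a receptor of macrophages, went the other way, with 26 to 53 counts at day 2 and 6 to 19 at day 4, and CD14 had 71 to 205 and 48 to 114 counts. In edgeR, 1 of the 4 leukocyte markers tested (PTPRC) rose and 1 (CSF1R) fell between the days on each matrix. The shares of all genes called were 14.1% higher and 13.3% lower on the soft and 14% and 13.7% on the stiff matrix. The 5 epithelial markers summed to 32.2 to 36.99 CPM at day 2 and 50.7 to 71.1 CPM at day 4. The 7 hepatocyte markers reached at most 10.6 CPM, with TTR and HNF4A at 0, and the 6 endothelial markers at most 1.55 CPM, with LYVE1 at 0. The part of such cells in the members' values was not tested.

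Of 12 other genes that load and trim peptides, 0 were called between the matrices at day 2 and 1 was lower on the stiff matrix at day 4, when 0.213% of all genes were called lower. This was ERAP2, an aminopeptidase that trims peptides in the endoplasmic reticulum. Its level was 47.8 and 52.9 CPM on the soft and 34.7 and 36.7 CPM on the stiff matrix at day 2, and 72.2 and 68.0 against 32.5 and 36.0 CPM at day 4. All stiff libraries lay below all soft ones. The log2 fold change was -0.50 (SE 0.133, adjusted p = 0.9999 in edgeR) at day 2 and -1.03 (SE 0.134, adjusted p = 0.0362) at day 4, and on the mean of both days it was -0.76 (adjusted p = 0.0225 in edgeR). TAPBP, which encodes tapasin, the bridge between TAP and the heavy chains, had log2 fold changes of -0.14 at day 2 and -0.44 at day 4 (adjusted p = 0.591 in edgeR at day 4). Over the 12 genes the median was 0.086 at day 2 and 0.064 at day 4. Between the days, 3 of the 12 rose and 0 fell on each matrix. The soft comparison called 14.1% of all genes higher and 13.3% lower, and the stiff one 14% and 13.7%.

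Of 15 transactivators of class I promoters, 1 was lower on the stiff matrix at day 4 and 2 were lower on the mean of both days, when 0.35% of all genes were called lower. IRF1, an interferon regulatory factor that binds the promoters of class I and immunoproteasome genes, was at 38.5 and 37.4 CPM on the soft and 21.4 and 26.4 CPM on the stiff matrix at day 2, and at 39.5 and 37.5 against 17.2 and 18.4 CPM at day 4. Its log2 fold change was -0.67 (SE 0.146, adjusted p = 0.833 in edgeR) at day 2 and -1.11 (SE 0.149, adjusted p = 0.0362) at day 4, and -0.89 on the mean of both days (adjusted p = 0.0175 in edgeR). IRF9, the DNA-binding subunit of the interferon-stimulated gene factor, was at 26.6 and 27.3 CPM on the soft and 14.8 and 19.2 CPM on the stiff matrix at day 2, and at 30.9 and 28.4 against 15.2 and 13.9 CPM at day 4. The mean log2 fold change of IRF9 was -0.84 (SE 0.116, adjusted p = 0.0319 in edgeR). All stiff libraries of IRF1 and IRF9 lay below all soft ones. The direction of IRF1, ERAP2 and IRF9 on the mean of both days held in all 18 other settings, but with 1 library left out their calls were lost in 6 of 8 cases, with adjusted p-values in edgeR up to 0.253. At day 4 alone, the calls of IRF1 and ERAP2 were lost in 6 of 8 such cases as well, and with only the 4 libraries of that day (adjusted p = 0.504 and 0.622 in edgeR). The 2 cases that kept the calls left out a library of the stiff matrix at day 4.

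NLRC5, the transactivator specific to class I genes, passed the cutoff in neither comparison of the matrices, with log2 fold changes of -0.16 at day 2 and -0.21 at day 4 (adjusted p = 0.889 in edgeR at day 4). Over the 15 transactivators the median log2 fold change on the stiff matrix was -0.11 at day 2 and -0.18 at day 4. Of 11 interferon ligands and receptor genes, 8 could be tested, and 0 were called between the matrices. The ligands IFNB1, IFNG and IFNL1 had 0 counts in all 8 libraries, and IFNE had 21 to 41 counts per library.

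Of 5 other proteasome genes of antigen processing, 0 were called between the matrices. PSMB10 had log2 fold changes on the stiff matrix of -0.47 and -0.25 at days 2 and 4, PSME1 of -0.41 and -0.35 and PSME2 of -0.38 and -0.11. PSME1 and PSME2 encode the interferon-inducible cap of the proteasome. All 3 had a log2 fold change below 0 at both days without passing the cutoff. Of the 11 other subunits of the 20S core, 0 were called between the matrices, and their median log2 fold change on the stiff matrix was -0.037 at day 2 and 0.24 at day 4.

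The members varied with each other to different degrees over the 8 libraries. Against the mean of the standardized log2 CPM of all 9, of which each member is itself a part, Pearson's r was 0.97 for PSMB9, 0.91 for HLA-C and 0.83 for HLA-E, but 0.17 for TAP1 and -0.28 for TAP2. The mean was lowest in replicate 1 of the stiff matrix at day 4 (-0.88) and in replicate 1 of the stiff matrix at day 2 (-0.79), and highest in replicate 1 of the soft matrix at day 4 (0.70). The 10 genes outside the list whose log2 CPM was most like this mean were UBE2L6 (r = 0.98), HAPLN3, ING4, LGALS3, IFI35, TNFSF13B, LRTOMT, CPZ, HSD17B14 and TMEM173 (r = 0.96). These were picked from 14570 genes over 8 libraries that share matrix, day and depth, so the coefficients are a description. UBE2L6, which encodes the conjugating enzyme of the interferon-induced modifier ISG15, had log2 fold changes on the stiff matrix of -0.29 and -0.31 at days 2 and 4, and IFI35 had -0.96 and -0.64, none of them called.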

How the data were processed

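RNA-seq was measured in 8 libraries of LX-2 cells, 2 per condition, with groups and replicate numbers from the labels and the stiffness from the study's methods. The authors trimmed paired-end reads with Trim Galore, mapped them to hg19 with STAR (2.7.1a in the submitters' processing notes), counted reads per gene with HTSeq and deposited raw counts. FPKM for these genes were deposited beside the counts. The gene annotation, strand setting and treatment of reads with several matches are not given in the sources used here.

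Counts were tested in R 4.3.3 with edgeR 4.0.16. Of 25369 genes, 14570 passed filterByExpr. TMM factors lay between 0.870 and 1.08. The quasi-likelihood fit took the 4 conditions as groups and all 8 libraries together, which then share one estimate of the spread (common dispersion 0.0281, prior degrees of freedom 3.86). A gene was called where its p-value, adjusted by Benjamini-Hochberg over all genes tested, was under 0.05. The standard error is the absolute log2 fold change over the root of the F statistic, and 95% intervals use a t distribution. CPM were scaled by TMM. Library totals of 19955975 to 27263935 counts make counting error small for the members (160 counts or more), so that 2 libraries per condition set the precision. Replicates are described by the study as independent experiments.

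Alternatives were DESeq2 1.42.0, RLE or no scaling factors, no filter, a filter of 10 counts in every library, the replicate number as a block, fits of only the 4 libraries compared, limma 3.58.1 on log2(FPKM + 1) and log2(FPKM + 0.1) and each library left out. The scripts were tested on simulated data. The members and gene lists were chosen with earlier results of these data known. Genes named were all members, a fixed set of pathway genes, listed genes called between the matrices and the 10 genes most like the members' mean. Gene coordinates and canonical transcripts are from GENCODE (lifted to GRCh37) and promoter windows from RefSeq.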

Additional observations from a re-analysis of the deposited data

How the results depend on the processing

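Of 846 values of single members under other settings, 728 kept their direction and side of the cutoff, 39 passed newly, 51 no longer passed and 28 changed direction. Members called between the matrices at day 2 numbered 0 in the reported fit and 5 when only the 4 libraries of that day were fitted (4.67% of all genes were called there), with 0 to 2 when 1 library was left out. At day 4 the count of 0 became 0 to 4 with 1 library left out. On the mean of both days it was 2 with DESeq2 and 0 to 6 with 1 library left out, and for the change of the stiffness effect it was 0 to 2, where the fit with 2 called 20.9% of all genes. On the soft matrix, the 2 members called between the days became 4 when only the 4 libraries were fitted (50.7% of all genes), 0 in each of the 3 limma fits and 0 to 4 with 1 library left out. On the stiff matrix, the 3 members became 0 when only the 4 libraries were fitted, 0 in each of the 3 limma fits and 0 to 8 with 1 library left out. In each comparison, the highest count with 1 library left out came without a library of the stiff matrix at day 4. Such a fit also called a larger share of all genes than the reported fit, so these counts are not a result about the members alone. With the replicate block, 0 members were called between the days on the soft matrix and 1 (TAP2) on the stiff matrix. The block changed no other count of members. Under the block the calls of IRF1, ERAP2 and IRF9 on the mean of both days were lost (adjusted p = 0.0644, 0.0836 and 0.101 in edgeR), as were those of IRF1 and ERAP2 at day 4 (0.122 each). The deviations of same-numbered libraries from their group means had correlations between -0.0358 and 0.0773, except for soft and stiff at day 4. There the correlation was -0.490, so that libraries with different numbers deviated alike at that day. The cause of this was not tested. With the stiff libraries of day 4 crossed in the block, an alternative chosen after the data were seen, between the matrices 0 members were called at either day.

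The near-zero day-4 difference of HLA-B between the matrices turned to 0.0021 with DESeq2 and with RLE factors, 0.0012 with only the 4 libraries, and it ran from -0.40 to 0.32 with 1 library left out. Over the same cases the day-4 difference ran from -0.48 to 0.12 for HLA-C, from -0.22 to 0.055 for HLA-E, from -0.89 to 0.29 for PSMB8 and from -0.29 to 0.090 for TAP2, each with the ends at the 2 stiff libraries of day 4. The day difference of PSMB9 on the soft matrix, 0.000055, turned to -0.017 with DESeq2 and RLE factors, -0.077 without scaling factors, -0.015 without a filter and with only the 4 libraries, -0.026 with the count filter, -0.0048 in the crossed block, -0.016 and -0.022 in limma with the larger and smaller pseudocount, and ran from -0.15 to 0.11 with 1 library left out. On the stiff matrix, it turned to -0.036 without scaling factors and ran from -0.29 to 0.43 with 1 library left out, where HLA-C ran from -0.049 to 0.56. The cause of these changes was not tested, and 2 libraries per condition limit them all. In a fit with 1 library left out, its condition holds 1 library, so the calls rest on the spread within the other conditions.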

Other observations

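MHC class II, which presents peptides from outside the cell and is mostly held by professional antigen-presenting cells, had low counts. Of 13 class II genes and chaperones, 4 had enough counts to be tested, HLA-DRA had at most 1 count in any library, and the class II transactivator CIITA had at most 7. CD74, the invariant chain, had 13 and 11 counts on the soft and 1 and 1 on the stiff matrix at day 2, and 15 and 8 against 0 and 3 at day 4. Of the 4, 0 were called between the matrices by edgeR. Between the days, 1 of the 4, HLA-DMA, rose on the stiff matrix (log2 fold change 1.19, adjusted p = 0.0360 in edgeR), where 14% of all genes were called higher. It is named here after its value was seen.

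Of 13 class I-like molecules and ligands of natural killer cell receptors, 11 were tested and 0 were called between the matrices. From day 2 to day 4, MR1, which presents vitamin metabolites to mucosal T cells, rose with log2 fold changes of 0.86 on the soft and 0.58 on the stiff matrix (adjusted p = 0.0103 and 0.0410 in edgeR). RAET1L, a ligand of the receptor NKG2D, fell, with log2 fold changes of -3.95 on the soft and -2.52 on the stiff matrix (adjusted p = 0.00204 and 0.00537 in edgeR). FCGRT, the neonatal Fc receptor, rose on the stiff matrix by 1.05 (adjusted p = 0.0125 in edgeR). POMP, the maturation factor of the proteasome, rose by 1.67 on the soft and by 1.99 on the stiff matrix (adjusted p = 0.00954 and 0.00579 in edgeR). These genes were named after their values were seen.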
